A study of Mus musculus with 6 samples.

Results

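The genes described here are 10 core components of Wnt reception in mouse cortical neurons: the ligands Wnt7a, Wnt7b and Wnt5a, the Frizzled receptors Fzd1, Fzd2, Fzd5, Fzd7 and Fzd8, and the co-receptors Lrp5 and Lrp6. They were taken by name from the 34289 genes to which the deposited transcripts could be assigned. RNA was sequenced from postmitotic cortical neurons of mouse embryos at E14.5 in 3 mutant libraries (RP58-/-) and 3 control libraries (RP58+/+). RP58, encoded by Zbtb18, is a zinc finger repressor that cortical neurons need in order to mature. The design compares neurons of the 2 genotypes. RNA of progenitor and cell cycle markers, given below, was present in every library. The labels name mouse cortices as the source and do not give the allele, the strain or how neurons were isolated. They also leave unsaid whether each library is a different embryo, so p-values measure the spread between these libraries, which may be technical.

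Wnt proteins are lipid-modified secreted ligands that bind the cysteine-rich domain of Frizzled receptors. Binding together with LRP5 or LRP6 stabilises beta-catenin, which then activates genes through TCF/LEF factors, whereas WNT5A acts mostly without beta-catenin, through receptors such as ROR2. In the developing brain WNT7A and WNT7B are signals from neural cells to the growing blood vessels and also act on neural progenitors and neurites.

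The 2 Wnt7 genes are close relatives, and they moved in opposite directions, so the part of their coding sequence where they are most alike is shown first. It is the 60-base stretch with the fewest differences, in the GENCODE vM21 models, counted from the A of the start codon, and capitals mark the 4 positions that differ. It spans bases 960 to 1019 of the 1047-base Wnt7a coding sequence on chromosome 6 and bases 981 to 1040 of the 1068-base Wnt7b coding sequence on chromosome 15.
Wnt7a: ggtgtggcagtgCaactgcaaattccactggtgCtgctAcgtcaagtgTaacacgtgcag
Wnt7b: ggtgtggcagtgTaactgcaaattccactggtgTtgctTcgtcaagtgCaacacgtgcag
Over the coding sequences as a whole 77.6% of 1043 aligned bases were identical, and the longest identical run was 23 bases. Neither gene shared a 31-base word with any other gene to which deposited transcripts could be assigned, the only genes searched. Reads of one were therefore not divided with the other at that word length. Among the receptors, Fzd1, Fzd2 and Fzd7 shared 1.61%, 1.90% and 0.78% of their 31-base words with each other.

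Total estimated counts lay between 34645505 and 75892649 per library. The libraries were of 2 types, which the labels do not name. In mutant 1, mutant 2 and control 1, transcripts were exactly 249 bases longer than their effective lengths (fixed-length libraries), and in mutant 3, control 2 and control 3 they were 133.7 to 139.2 bases longer (estimated-length libraries). The types held 86.8% to 88.4% and 68.1% to 68.5% of counts in nuclear protein-coding genes, and genotypes are spread unevenly over them. Fold changes are therefore from a fit with a term for library type, and calls that the fit without that term does not make are given beside the result, as counts for lists of genes. Folds are those of the fit. Zbtb18, the targeted gene, had 46.7, 45.7 and 538 CPM (counts scaled to a common, TMM-normalized library size) in mutants 1, 2 and 3, against 1902, 1587 and 1697 CPM in controls 1, 2 and 3. Its log2 fold change was -3.48 ± 0.81 (edgeR quasi-likelihood test, adjusted p = 0.0337), with -5.36 ± 0.13 within the fixed-length and -1.61 ± 0.13 within the estimated-length libraries, a difference that passed its test (adjusted p = 0.00963). The call over all 6 libraries was lost without control 3, mutant 1 or mutant 2 (adjusted p up to 0.119), and without the library type term (-3.04 ± 1.09, adjusted p = 0.400). Mutant 3 kept far more Zbtb18 RNA than the other mutants. Those of the 10 genes and of the pathway that passed, except Ror2, are also given without it. As mutant 3 is the only estimated-length mutant, that fit takes its effect from mutants 1 and 2 against control 1. It nearly repeats the effect within the fixed-length libraries. Leaving out control 1 likewise leaves mutant 3 against controls 2 and 3, the effect within the estimated-length libraries. Pan-neuronal markers summed to between 5463 and 8584 CPM in mutants and between 6594 and 9984 CPM in controls. Of these 10 markers 2 were higher (Rbfox3 and Snap25) and 3 lower (Stmn2, Dcx and Neurod6) by the test. Over all genes 7.92% were higher and 7.01% lower. The largest of these marker changes were -1.37 ± 0.09 for Stmn2 and 1.06 ± 0.13 for Rbfox3 on the log2 scale. Interneuron, choroid plexus, endothelial, mural, meningeal and microglial markers each summed to at most 4.53 CPM in any library, although 1 of 3 tested endothelial (Kdr), 1 of 4 mural (Cspg4), 1 of 1 choroid plexus (Kl) and 2 of 5 interneuron markers rose. Without the library type term 0 markers of these 6 lists and 0 pan-neuronal markers passed.

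Among the 10 genes, 3 rose in mutant neurons (Wnt7a, Fzd2 and Lrp5), 2 fell (Wnt7b and Fzd1) and 5 did not pass the test at an adjusted p of 0.05 (edgeR quasi-likelihood test, Benjamini-Hochberg adjustment over all genes). Over all 16985 genes tested, 14.9% passed, 7.92% upward and 7.01% downward, and the median log2 fold change was -0.000767. All 10 genes passed the filter on low counts, and their median log2 fold change was 0.0953. Groups did not overlap for 4 of the 10 genes, against 15.4% of all genes tested. Wnt7a and Fzd2 lay higher in mutants (8.8% of all genes), and Wnt7b and Fzd1 lower (6.64%). Without the library type term 3 genes passed, Wnt7a upward and Wnt7b and Fzd1 downward, against 2.36% of all genes (1.59% upward and 0.765% downward). Within the fixed-length libraries 2 rose (Wnt7a and Fzd2) and 2 fell (Wnt7b and Fzd1), where 9.46% of all genes passed, 6.05% upward and 3.41% downward. Within the estimated-length libraries the same 4 genes passed and Fzd7 fell too, where 7.92% of all genes passed, 4.6% upward and 3.32% downward. Within a type 1 genotype has a single library, assumed to vary like the others.

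**Figure D1:**
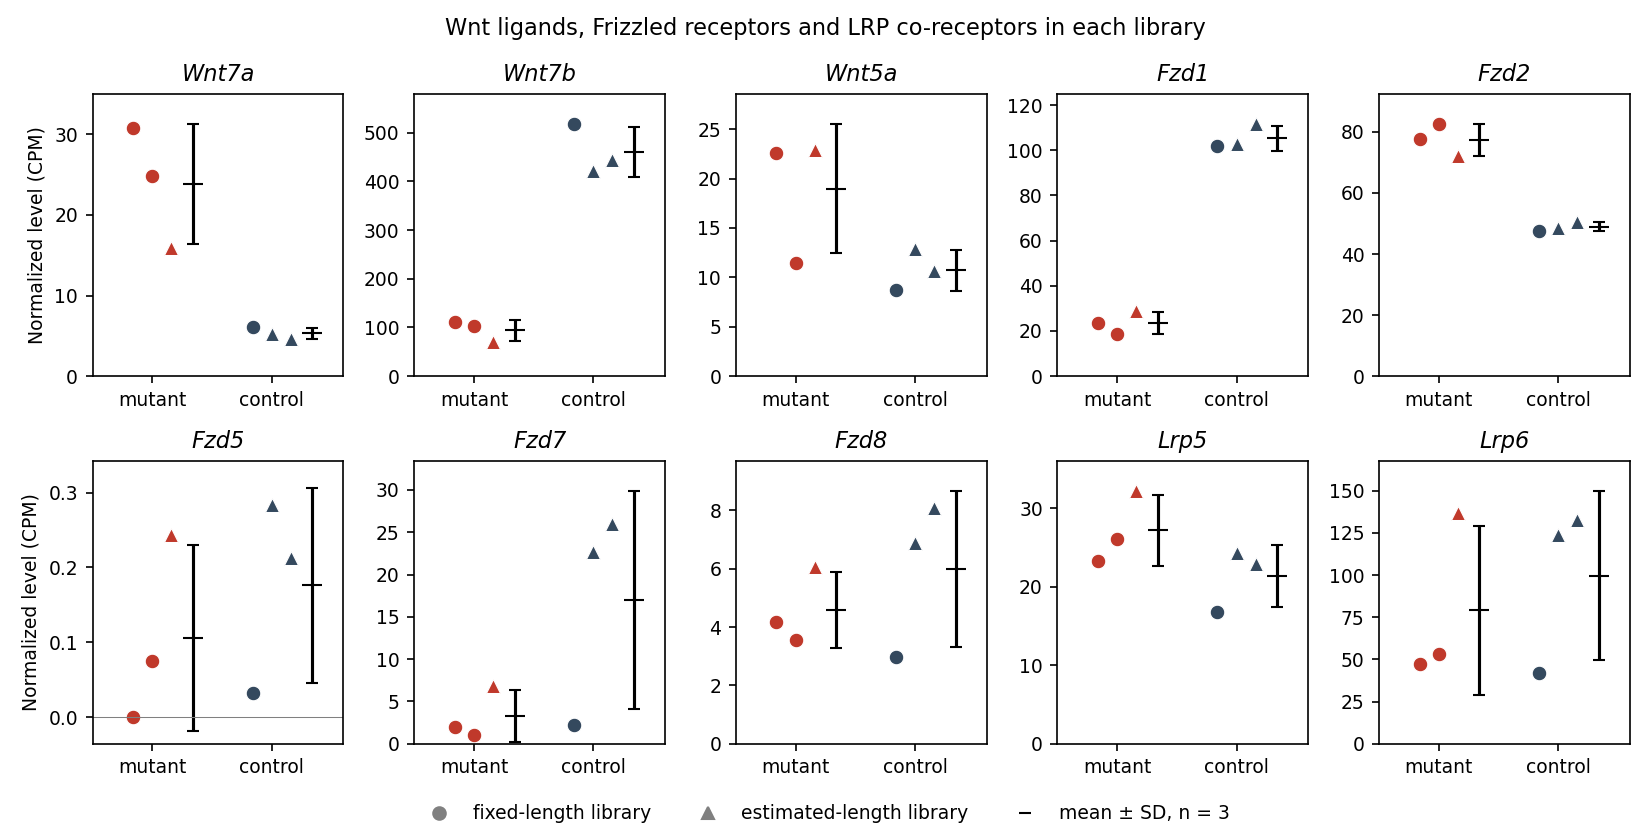
Normalized level in CPM (linear axis) of each of the 10 genes in the 3 mutant and the 3 control libraries, with circles for fixed-length and triangles for estimated-length libraries, and the mean ± SD beside them. Wnt7b and Fzd1 are lower in every mutant library than in every control library, Wnt7a and Fzd2 are higher, and Lrp6, Fzd7 and Fzd8 are higher in every estimated-length library than in every fixed-length library.

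Wnt7b had the most negative log2 fold change of the 10 genes in the fit with the library type term, whereas without it Fzd7 was at -2.38 (adjusted p = 0.624) and Wnt7b at -2.29. Its transcripts lie on chromosome 15. It had 110.6, 102 and 69.9 CPM in mutants 1, 2 and 3, against 518, 421 and 443 CPM in controls 1, 2 and 3. Every mutant library lay far below every control library, in both library types. The log2 fold change was -2.46 ± 0.11 (SE, n = 3 each; adjusted p = 5.88e-05), a fitted level 5.48-fold lower in mutants. It was -2.28 ± 0.13 within the fixed-length and -2.63 ± 0.15 within the estimated-length libraries, and -2.28 ± 0.12 without mutant 3 (adjusted p = 0.000758). In these bulk samples, fewer cells carrying a transcript and less of it per cell cannot be told apart.

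Wnt7a, the paralog of Wnt7b, moved the opposite way from a low level. Its level was 30.7, 24.9 and 15.9 CPM in mutants 1, 2 and 3, against 6.04, 5.29 and 4.60 CPM in controls 1, 2 and 3. The lowest mutant, the estimated-length library with residual Zbtb18 RNA, still lay well above the highest control. On the log2 scale the change was 1.93 ± 0.18 (adjusted p = 0.000775), a 3.82-fold rise, with 2.20 ± 0.23 and 1.68 ± 0.20 within the fixed-length and the estimated-length libraries. Without mutant 3 it was 2.20 ± 0.23 (adjusted p = 0.00468).

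With one gene up and the other down, their proportion was examined next, as a description. Levels per length were compared as TPM values recomputed over nuclear protein-coding genes (rescaled TPM). On that scale Wnt7a made up 23.9%, 20.7% and 19.6% of the Wnt7a and Wnt7b total in mutants 1, 2 and 3, against 1.24%, 1.33% and 1.10% in controls 1, 2 and 3. The shares were near each other within a genotype whatever the library type. The 3 ligands together summed to 91.4 ± 8.93 rescaled TPM in mutants and 346 ± 62.5 in controls (SD, n = 3 each), a total made mostly of Wnt7b in both. Among 20904 nuclear protein-coding genes Wnt7b ranked between 2891 and 3619 in mutants and between 339 and 585 in controls.

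Of the 3 coding transcript models of Wnt7b, 2 fell in the test over 42824 transcripts, in which 1.74% of all transcripts passed, 1.11% upward and 0.637% downward. The main model, Wnt7b-201, had 83.1, 84.8 and 48.9 CPM in mutants 1, 2 and 3, against 448, 317 and 329 CPM in controls 1, 2 and 3 (log2 fold change -2.53 ± 0.11, adjusted p = 0.00382). The scarce Wnt7b-203 fell by 2.41 ± 0.27 on the log2 scale (adjusted p = 0.0267). Wnt7b-202 had 26.7, 16.2 and 19.1 CPM in mutants, against 63.4, 94.5 and 105 CPM in controls (log2 fold change -1.93 ± 0.32, adjusted p = 0.0674). Wnt7b-202 took 15.9% to 27.4% of the gene's counts in mutants and 12.2% to 23.8% in controls, ranges that overlap. Wnt7a-201 carried at least 99.9% of Wnt7a counts in every library and rose (log2 fold change 1.99 ± 0.22, adjusted p = 0.0241). An annotated gene on the opposite strand, AU022754, overlaps 324 exonic bases of Wnt7b. No source used here gives how the counting used strand, so reads from that overlap cannot be assigned. AU022754 was not among the genes to which deposited transcripts could be assigned, so it has no counts of its own here.

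Wnt5a, the ligand best known for signalling without beta-catenin, did not pass the test. The gene, on chromosome 14, had 22.6, 11.4 and 22.9 CPM in mutants 1, 2 and 3, against 8.68, 12.8 and 10.6 CPM in controls 1, 2 and 3. Mutants 1 and 3 lay above all controls and mutant 2 lay among them. Its change of 0.97 ± 0.27 on the log2 scale missed the threshold (adjusted p = 0.0573) and was 0.97 in each library type taken alone. With 1 library left out it passed in 1 of 6 fits, without mutant 2 (1.14 ± 0.14, adjusted p = 0.00534), and not in the others (adjusted p up to 0.238, and 0.232 without mutant 3). It passed in 5 of 9 other alternatives, with adjusted p between 0.00178 and 0.505 over the 9. Both long coding models contributed, with Wnt5a-201 taking 46.3% to 54.0% of the counts in mutants and 44.8% to 52.6% in controls. A gene on the opposite strand, Gm2670, overlaps 358 exonic bases of Wnt5a and, like AU022754, has no counts of its own here.

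**Figure D2:**
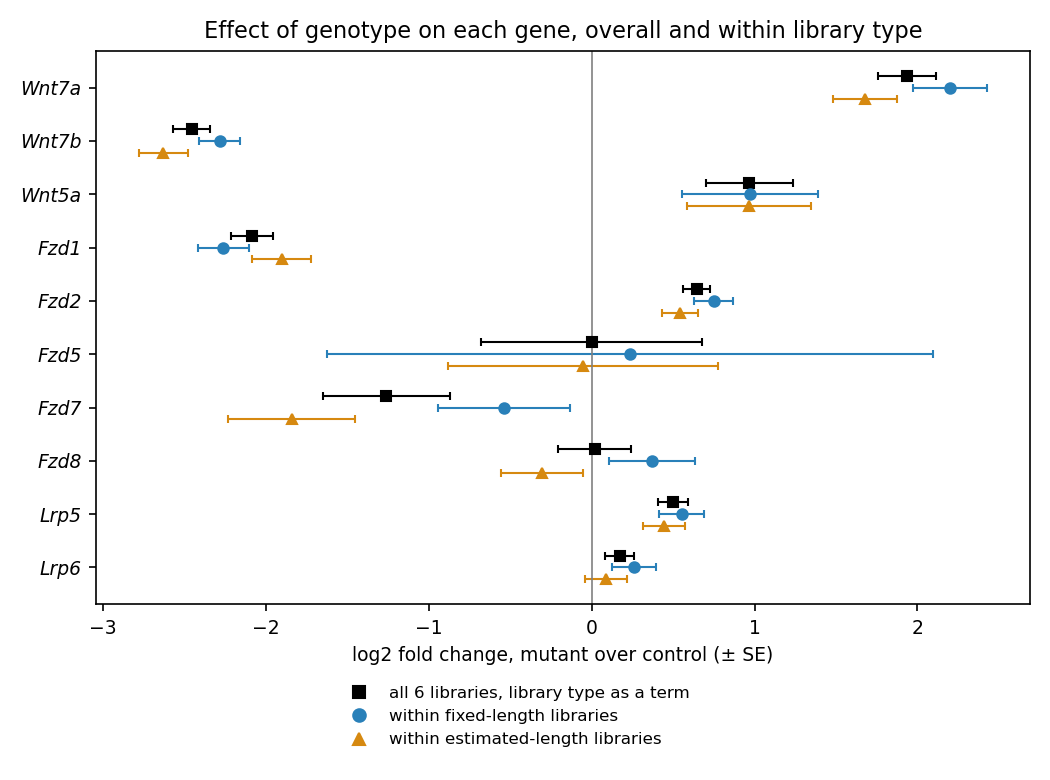
Log2 fold change of mutant over control with its SE for each of the 10 genes, from all 6 libraries with library type as a term (squares), within the fixed-length libraries (circles) and within the estimated-length libraries (triangles). Fzd5 and Fzd8 change side between the library types, and the other 8 genes lie on 1 side of 0 in all 3 estimates.

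Frizzled receptors bind Wnt ligands at the cell surface and pass the signal to dishevelled proteins. Fzd1 fell and Fzd2 rose, and Fzd5, Fzd7 and Fzd8 did not pass. Fzd1, on chromosome 5, had 23.6, 18.9 and 28.7 CPM in mutants 1, 2 and 3, against 101.7, 103 and 112 CPM in controls 1, 2 and 3. The highest mutant lay well below the lowest control. Fzd1 changed by -2.08 ± 0.13 on the log2 scale (adjusted p = 0.000157), 4.24-fold lower in mutants, and it was -2.26 ± 0.16 and -1.90 ± 0.18 within the fixed-length and the estimated-length libraries. Without mutant 3 it was -2.26 ± 0.16 (adjusted p = 0.00145).

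Fzd2, on chromosome 11, had 77.8, 82.5 and 72.1 CPM in mutants 1, 2 and 3, against 47.7, 48.4 and 50.5 CPM in controls 1, 2 and 3. Both groups were tight and did not overlap. Fzd2 rose by 0.65 ± 0.08 on the log2 scale (adjusted p = 0.00326), a 1.56-fold rise, and 0.75 ± 0.12 without mutant 3 (adjusted p = 0.0177). Without the library type term it was 0.66 ± 0.15 and did not pass (adjusted p = 0.115).

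Fzd7, on chromosome 1, had 1.97, 1.01 and 6.78 CPM in mutants 1, 2 and 3, against 2.16, 22.7 and 25.9 CPM in controls 1, 2 and 3. Levels were low in all fixed-length libraries, and within the estimated-length libraries the mutant lay below both controls. Over all libraries Fzd7 had a log2 fold change of -1.26 ± 0.39 (adjusted p = 0.0797). It was -1.84 ± 0.39 within the estimated-length libraries (adjusted p = 0.0452) and -0.54 ± 0.41 within the fixed-length libraries (adjusted p = 0.466). The difference between those effects did not pass in edgeR (-1.30 on the log2 scale, adjusted p = 0.707). The gene passed without control 1 (adjusted p = 0.0471) or without mutant 1 (0.0150), and was at -0.54 without mutant 3 (0.471). Fzd7 passed in 2 of 9 other alternatives, DESeq2's Wald test (adjusted p = 0.00312) and the edgeR fit without a filter on low counts (0.00332).

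Fzd8 had 4.17, 3.55 and 6.05 CPM in mutants 1, 2 and 3, against 2.99, 6.88 and 8.10 CPM in controls 1, 2 and 3. Both fixed-length mutants lay above their control, and the estimated-length mutant lay below its controls. Neither effect passed (0.37 ± 0.27 and -0.31 ± 0.25, adjusted p = 0.447 and 0.588), nor did their difference (adjusted p = 0.818). Over both types the log2 fold change was 0.018 ± 0.23 (adjusted p = 0.971). Fzd5 was near the limit of detection, with 0, 4.0 and 12.5 estimated counts in mutants 1, 2 and 3 and 1.1, 18.7 and 8.5 in controls 1, 2 and 3. Its fitted log2 fold change of 0.000499 ± 0.68 rests on too few counts to be read, and a difference was not detectable at this depth. Gm38058, a gene on the opposite strand that also has no counts of its own here, overlaps 1233 exonic bases of Fzd5.

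The difference in genotype effect between library types was tested in edgeR, and 0 of the 10 genes passed at an adjusted p of 0.05. Of all genes 0.153% passed at that threshold. At an unadjusted p under 0.05 it was 0 of the 10 genes, against 1222 of all 16985 genes tested. With so few libraries behind each effect, the test cannot show that the effects are the same in both types.

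Per length, Fzd2 led the 5 Frizzled members in mutants and Fzd1 led in controls. Fzd2 was at 39.6, 46.2 and 61.7 rescaled TPM in mutants 1, 2 and 3 and Fzd1 at 9.82, 8.65 and 20.2. In controls 1, 2 and 3 Fzd2 was at 23.1, 37.6 and 41.0 rescaled TPM and Fzd1 at 40.3, 65.7 and 74.7. Fzd2 exceeded Fzd1 in all 3 mutants and lay below it in all 3 controls. Over all 10 Frizzled genes of the mouse, Fzd1 took 6.75% to 13.0% of the rescaled TPM in mutants, against 25.2% to 50.9% in controls. Fzd3 was the largest component in the estimated-length libraries of both genotypes, with 65.5% in mutant 3 and 50.6% and 47.1% in controls 2 and 3, against at most 21.3% in the fixed-length libraries.

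**Figure D3:**
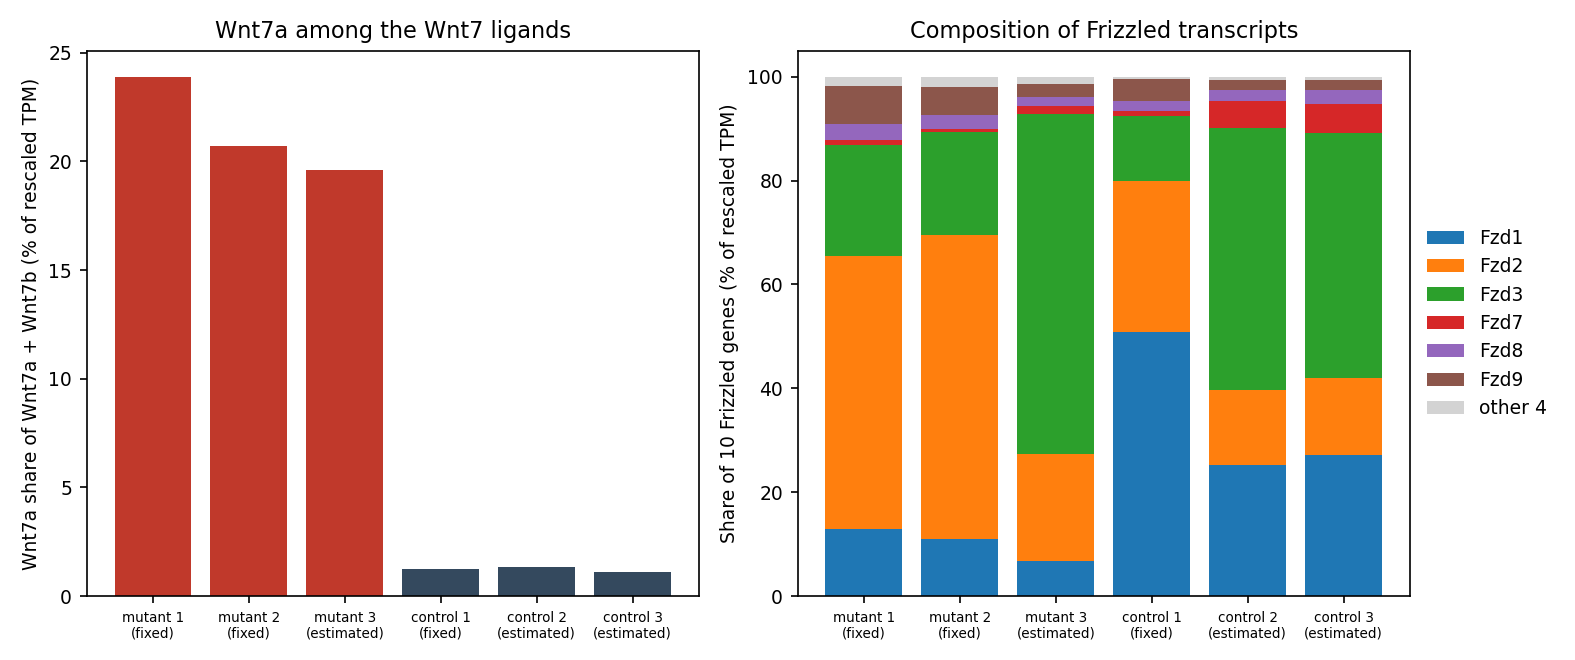
Left, share of Wnt7a in the summed rescaled TPM of Wnt7a and Wnt7b in each library, on an axis from 0. Right, share of each Frizzled gene in the summed rescaled TPM of all 10 Frizzled genes, with the library type under each bar. Wnt7a takes 19.6% to 23.9% in mutants and 1.10% to 1.33% in controls, and the share of Fzd1 is smaller in each mutant than in the controls of the same library type.

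LRP5 and LRP6 are the single-pass co-receptors that pair with Frizzled in the beta-catenin pathway. Lrp5, on chromosome 19, had 23.3, 26.0 and 32.1 CPM in mutants 1, 2 and 3, against 16.8, 24.4 and 22.9 CPM in controls 1, 2 and 3. Mutants lay above the controls within each library type, but mutant 1 lay below control 2 across types. Lrp5 rose by 0.50 ± 0.09 on the log2 scale (adjusted p = 0.0146), a 1.41-fold rise, the smallest of the 5 that passed. The call was lost without control 1 (adjusted p = 0.112), control 2 (0.0555), control 3 (0.0673) or mutant 3 (0.0750), and also without the library type term (0.933).

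Lrp6, on chromosome 6, had 47.2, 53.4 and 137 CPM in mutants 1, 2 and 3, against 42.03, 124 and 133 CPM in controls 1, 2 and 3. Its level followed library type, with each estimated-length library above each fixed-length library, and the genotypes overlapped. The log2 fold change was 0.17 ± 0.09 (adjusted p = 0.264), with 0.26 ± 0.13 and 0.09 ± 0.13 within the fixed-length and the estimated-length libraries. The 9368-base coding model of Lrp6 held at least 96.2% of the counts in every library. The 5161-base coding model of Lrp5, in contrast, held 73.9% to 81.1% in mutants and 67.4% to 87.1% in controls, the rest lying in shorter or nonsense-mediated decay models.

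Ordered per length by mean over all 3 mutants, Wnt7b (62.0 ± 1.78 rescaled TPM) and Fzd2 (49.1 ± 11.4) led, followed by Lrp6 (25.9 ± 27.6) and Wnt7a (16.9 ± 1.80). The place of Lrp6 came from mutant 3, with 57.7 rescaled TPM against 15.6 for Wnt7a, whereas in mutants 1 and 2 Lrp6 was at 8.95 and 11.1 and Wnt7a at 18.9 and 16.1. Lrp5 (12.9 ± 4.96), Fzd1 (12.9 ± 6.36) and Wnt5a (12.6 ± 8.24) lay together within their spread (SD, n = 3). Fzd8 (3.37 ± 1.96), Fzd7 (1.84 ± 2.18) and Fzd5 (0.0449 ± 0.060) came last. In controls Wnt7b (335 ± 58.9) stood above Fzd1 (60.2 ± 17.9), and Lrp6 (34.6 ± 23.6) and Fzd2 (33.9 ± 9.54) followed without a gap beyond their spread, although Lrp6 was at 7.53 in control 1, below Fzd2 at 23.1. Lrp5 (10.3 ± 3.85), Fzd7 (9.92 ± 8.02), Wnt5a (7.37 ± 3.20), Fzd8 (4.85 ± 2.91) and Wnt7a (4.13 ± 0.69) lay below them, and Fzd5 (0.0693 ± 0.0541) was again last. Neighbours from Lrp5 to Wnt7a in the control order did not differ beyond their spread.

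RefSeq promoter windows, running from 250 bases before to 50 after the gene start, were used for Wnt7a, Fzd1, Fzd5 and Fzd7. The promoter set at hand held no window for Wnt7b, Wnt5a, Fzd2, Lrp5 or Lrp6, so these genes were not searched. Any window of Fzd8 was left out by choice, whereas the shares of all windows were taken without leaving any out. The windows of Wnt7a and Fzd1 are shown because these genes changed strongly and in opposite directions. Both are on the minus strand of GRCm38.p6, at chr6:91411304-91411603 and chr5:4758167-4758466, and are written 5′ to 3′ along the gene. Capitals mark CANNTG, the E-box, which reads the same on both strands. The published RP58 core ACATCTG contains an E-box, and the search for CANNTG alone was added after ACATCTG had been searched.
Wnt7a: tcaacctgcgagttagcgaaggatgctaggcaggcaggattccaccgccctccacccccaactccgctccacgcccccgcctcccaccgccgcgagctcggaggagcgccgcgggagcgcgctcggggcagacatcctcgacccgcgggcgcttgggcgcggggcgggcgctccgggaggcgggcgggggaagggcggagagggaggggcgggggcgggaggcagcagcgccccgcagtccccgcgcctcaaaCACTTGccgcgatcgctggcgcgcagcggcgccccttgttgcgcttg
Fzd1: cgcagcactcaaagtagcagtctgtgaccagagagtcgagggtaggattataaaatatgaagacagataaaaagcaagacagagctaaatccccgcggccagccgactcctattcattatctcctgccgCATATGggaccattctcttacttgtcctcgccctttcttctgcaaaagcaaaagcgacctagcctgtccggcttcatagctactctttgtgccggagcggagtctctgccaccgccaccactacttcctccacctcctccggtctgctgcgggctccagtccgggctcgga
The core ACATCTG was, on either strand, in 0 of the 4 windows and in 4.4% of all 32851 windows of the table. CANNTG was in 3 of the 4, all but Fzd7, and in 72.3% of all windows. No match says only that these letters are not in these windows.

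Markers of other cell states moved in the same comparison. Of 8 markers of intermediate progenitors 6 rose (2 without the library type term), where 7.92% of all genes rose and 7.01% fell, and their sum was 737 to 1182 CPM in mutants and 247 to 458 CPM in controls. Of 14 radial glia markers 4 rose (Hes1, Pax6, Prom1 and Sox2) and 4 fell (Slc1a3, Fabp7, Vim and Ptprz1), and the sum was 357 to 480.0 CPM in mutants and 618 to 813 CPM in controls. Without the term 3 rose and 1 fell. The order of these sums rests on Ptprz1, singled out after its values were seen: without it they were 416, 358 and 230.5 CPM in mutants 1, 2 and 3 and 373, 205 and 217 CPM in controls 1, 2 and 3, ranges that overlap. Of 10 cell cycle genes 5 rose (0 without the term), with sums of 98.1 to 143 CPM in mutants and 78.8 to 139 CPM in controls. Markers of the cortical hem, a source of Wnt ligands, and of Cajal-Retzius cells summed to 232 to 690.3 CPM in mutants and 197 to 722 CPM in controls, with 1 of 7 tested genes passing (Lmx1a, which rose, but 0 without the term). Of 3 tested oligodendrocyte lineage markers 2 rose (Pdgfra and Mbp, and 0 without the term), with sums of 39.9 to 57.8 CPM in mutants and 27.5 to 34.2 CPM in controls, and Sox10 at 0 counts in every library. The part of these cell states in the levels of Wnt7a, Wnt7b, Fzd1 and Fzd2 was not tested.

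The rest of the pathway was read from 8 lists with 90 genes, of which 68 were tested. Of these, 12 rose and 3 fell, 22.1% in all against 14.9% of all genes (7.92% upward and 7.01% downward). Their median log2 fold change was 0.211. Without the library type term 2 passed, Notum and Rspo3.

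Among the 16 other ligands only 3 were abundant enough to test, and Wnt5b, a relative of Wnt5a, rose. It had 7.37, 5.03 and 6.66 CPM in mutants 1, 2 and 3, against 2.89, 2.93 and 2.49 CPM in controls 1, 2 and 3 (log2 fold change 1.20 ± 0.22, adjusted p = 0.0143). Groups did not overlap, but the call was lost without mutant 3 (adjusted p = 0.120) and without each control in turn.

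Of 10 tested receptors outside the core group 4 rose and none fell, where 7.92% of all genes rose and 7.01% fell. The median log2 fold change of the list was 0.524. Fzd4, which also binds the non-Wnt ligand Norrin, had 2.26, 2.64 and 3.36 CPM in mutants 1, 2 and 3, against 0.286, 0.997 and 0.782 CPM in controls 1, 2 and 3 (log2 fold change 2.37 ± 0.34, adjusted p = 0.00497). Without mutant 3 the log2 fold change of Fzd4 was 3.09 ± 0.44. Ptk7, a receptor of planar cell polarity, rose by 0.51 ± 0.09 on the log2 scale (adjusted p = 0.00977). Fzd3, a receptor of axon guidance, rose by 0.51 ± 0.09 (adjusted p = 0.0101), but was at -0.28 without the library type term. Fzd3 averaged 107 ± 125 CPM in mutants and 129 ± 91.8 CPM in controls, and every estimated-length library lay above every fixed-length library. The calls of both were lost without control 1, control 3 or mutant 3 (adjusted p between 0.0549 and 0.103). Ror2, the WNT5A receptor, completed the 4, at 11.99 ± 1.25 CPM in mutants and 7.07 ± 1.91 CPM in controls (adjusted p = 0.0121, named after its values were seen).

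Rspo3, a secreted R-spondin that raises Frizzled and LRP at the surface by blocking their turnover, was the only one of 6 tested genes of its list to pass. It had 20.3, 20.9 and 20.1 CPM in mutants 1, 2 and 3, against 73.2, 84.5 and 87.5 CPM in controls 1, 2 and 3. Both groups were narrow and far apart. Rspo3 changed by -1.97 ± 0.09 on the log2 scale (adjusted p = 6.02e-05), 3.90-fold lower in mutants, and -1.83 ± 0.11 without mutant 3 (adjusted p = 0.000858).

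Notum, a secreted enzyme that removes the lipid from Wnt proteins and so inactivates them, showed the largest fold change of the 68 tested pathway genes and was the only one of 3 genes of secretion and release to pass. It had 8.92, 6.29 and 10.04 CPM in mutants 1, 2 and 3, against 0.0954, 0.0298 and 0.0711 CPM in controls 1, 2 and 3. Mutants held 1295 counts in all and controls 8, which per normalized library size is a ratio of 147 with an exact 95% interval of 74.6 to 342 that covers counting error only. Notum rose by 7.19 ± 0.41 on the log2 scale (adjusted p = 0.000121), and by 6.28 ± 0.60 without mutant 3 (adjusted p = 0.00371).

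Of 12 tested secreted inhibitors 3 rose and none fell, where 7.92% of all genes rose and 7.01% fell. The median log2 fold change of the list was -0.0146. Dkk2, which binds LRP co-receptors, had 1.49, 1.80 and 3.28 CPM in mutants 1, 2 and 3, against 0.0318, 0.655 and 0.569 CPM in controls 1, 2 and 3 (adjusted p = 0.00993). The log2 fold change of Dkk2 was 3.11 ± 0.52, and 5.58 ± 0.65 without mutant 3. That larger value is set against control 1, at 0.0318 CPM, and so rests on very few counts. Within the estimated-length libraries Dkk2 was at 2.41 ± 0.32. Sostdc1, another LRP-binding protein, averaged 0.853 ± 0.454 CPM in mutants and 0.121 ± 0.143 CPM in controls (adjusted p = 0.0164). No control exceeded 0.286 CPM, so the size of this change rests on few control counts. Dkk3, a divergent member of the Dickkopf family, averaged 7.02 ± 0.707 CPM in mutants and 3.22 ± 1.22 CPM in controls (adjusted p = 0.0224). The calls of Sostdc1 and Dkk3 were lost without control 2, control 3, mutant 1 or mutant 3, with adjusted p up to 0.102 and 0.176.

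**Figure D4:**
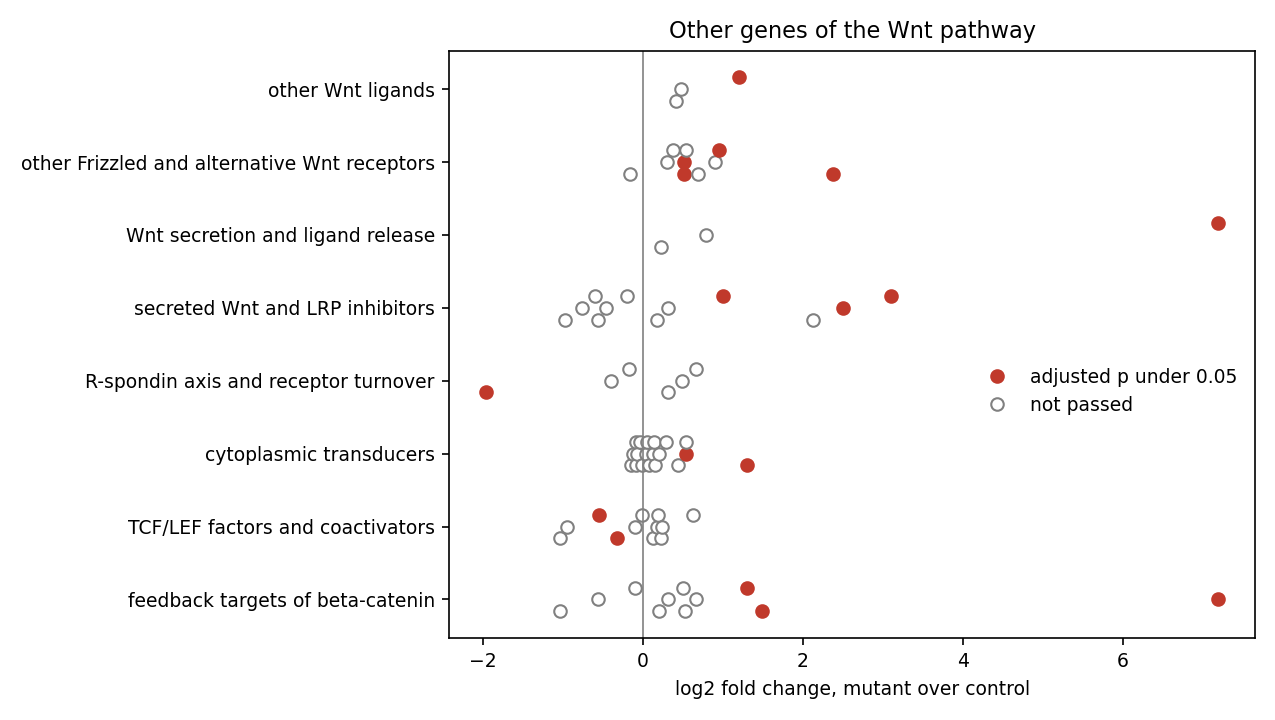
Log2 fold change of mutant over control for the tested genes of each of the 8 pathway lists, filled where the adjusted p was under 0.05. A gene in several lists is drawn in each, as with Notum at 7.19, and Rspo3 at -1.97 is the lowest point.

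Of 19 cytoplasmic transducers 2 rose, where 7.92% of all genes rose, and the median log2 fold change of the list was 0.0687. Nkd1, an antagonist that binds dishevelled, had 198, 215 and 124 CPM in mutants 1, 2 and 3, against 76.7, 50.3 and 59.6 CPM in controls 1, 2 and 3. The lowest mutant lay above the highest control, and the log2 fold change was 1.30 ± 0.11 (adjusted p = 0.000553), and 1.43 ± 0.16 without mutant 3 (adjusted p = 0.00598). Dvl3, one of the dishevelled scaffolds, averaged 76.3 ± 13.5 CPM in mutants and 48.5 ± 3.81 CPM in controls (adjusted p = 0.0113, and 0.116 without control 1). Its log2 fold change was 0.54 ± 0.09, and 0.66 ± 0.13 without mutant 3.

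Of 12 TCF/LEF factors and cofactors 2 fell, where 7.01% of all genes fell, with a median log2 fold change of 0.0557 over the list. Tle1, a corepressor of the Groucho family, averaged 50.4 ± 3.26 CPM in mutants and 76.3 ± 3.38 CPM in controls (log2 fold change -0.56 ± 0.07, adjusted p = 0.00299, and 0.0552 without control 1). Without mutant 3 the log2 fold change of Tle1 was -0.57 ± 0.11. Ctnnbip1, which blocks the binding of beta-catenin to TCF factors, averaged 122 ± 40.9 CPM in mutants and 125 ± 49.9 CPM in controls. Its log2 fold change with the library type term was -0.33 ± 0.09 (adjusted p = 0.0475), a call lost without each control or mutant 3 (adjusted p up to 0.301).

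In the list of beta-catenin feedback targets 3 of 11 tested genes rose, Notum, Nkd1 and Sp8, where 7.92% of all genes rose. The median log2 fold change of the list was 0.504. Sp8, a zinc finger gene of cortical patterning, averaged 2.16 ± 0.479 CPM in mutants and 0.763 ± 0.057 CPM in controls (adjusted p = 0.0151). That call was lost without mutant 3 (adjusted p = 0.0926) or any 1 control (0.0579 to 0.0903). The widely used target genes Axin2 and Lef1, named after their values were seen, did not pass. Axin2 averaged 16.7 CPM in mutants and 18.0 CPM in controls (log2 fold change 0.20 ± 0.12, adjusted p = 0.339). Lef1 averaged 17.5 CPM in mutants and 20.8 CPM in controls (log2 fold change -0.10 ± 0.10, adjusted p = 0.540).

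Wnt7b had the smallest p of the 10 genes. With the mean of each library type removed, the genes whose log2 CPM ran most like it over the 6 libraries were Enc1, 2810032G03Rik, Kctd8, Bcl7a and Rae1, each with Pearson's r of at least 0.9998, but 864 of 10214 genes compared had an r of at least 0.95, so the likeness singles out no small set.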

How the data were processed

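Each deposited table listed 97251 transcripts. Per the file headers, these hold estimated counts, deposited without normalization, TPM values, which the authors scaled by effective length and library total, and the length and effective length. FastQC, kallisto and mm9 are named, without versions, in the submitters' processing notes. The kit was stranded and took total RNA, per the labels. Transcripts were joined to GENCODE vM21 genes by ID (84637 matched, 87.0%; the unmatched held 6.85% to 8.58% of counts), summed and rounded to whole numbers.

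Genotypes were compared with edgeR 4.0.16 (glmQLFit and glmQLFTest, R 4.3.3) on all 6 libraries, with TMM, filterByExpr at its defaults and a term for library type, which was read from the deposited lengths. An SE is the log2 fold change over the root of its F statistic, without sign. This fit, but not the within-type one, was tested on simulated data. Changes were simulated only in genes of higher count, so the simulation says nothing about recovering changes in scarce genes. The common biological coefficient of variation was 0.186 with the term and 0.701 without it. Effects within a type came from a fit with 4 means and a pooled spread, since each type holds a genotype with 1 library. Rescaled TPM was recomputed from estimated counts and effective lengths over 20904 nuclear protein-coding genes, because these held 78.4% to 81.8% of the authors' TPM in fixed-length and 10.3% to 12.6% in estimated-length libraries. Alternatives used DESeq2 1.42.0 and limma 3.58.1. Sequences came from RefSeq (GRCm38.p6) and GENCODE vM21.

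The members, lists, library types and tests were chosen with earlier results of these data known. The named pathway genes were, from each list, up to 3 that passed with the smallest p, or the most abundant tested gene where none passed.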

Additional observations from a re-analysis of the deposited data

How the results depend on the processing

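No paired analysis was possible because the replicate numbers were given in order of deposition and pair nothing. Wnt7b and Fzd1 passed in every alternative run. Wnt7a passed in all but limma on log2(TPM + 1), and Fzd2 in all but that, limma on log2(TPM + 0.1) and the fit without the library type term. All 4 passed whichever library was left out, although without mutant 3 or control 1 the effect came from 1 library type alone. Without the library type term 400 genes passed in place of 2537, with 3 of the 10 genes and 2 pathway genes in place of 5 and 15. DESeq2's Wald test gave 4029 genes, 7 of the 10 genes and 23 pathway genes. The edgeR fit without a filter on low counts gave 3178 genes, 7 of the 10 genes and 21 pathway genes. Limma on log2(TPM + 0.1) gave 1017 genes, 4 of the 10 genes and 6 pathway genes. On log2(TPM + 1) it gave 562 genes, 2 of the 10 genes and 3 pathway genes. With 1 library left out, 1294 to 3034 genes, 4 to 6 of the 10 genes and 7 to 18 pathway genes passed; the fewest genes and pathway genes came without control 1. Genes that passed split into 1346 higher and 1191 lower in mutants; limma on rescaled TPM, chosen after seeing the data, gave 1607 and 839 and moved the median of all genes to 0.122. The balance turned with DESeq2's Wald test (1757 higher and 2272 lower) and with DESeq2 size factors (1341 and 1431), and without the library type term it was 270 and 130. Fzd5, Fzd8, Lrp6 and Fzd3 turned to -0.74, -0.38, -0.33 and -0.28 without the term, each with adjusted p = 0.997. With DESeq2 size factors Fzd5 turned to -0.0079 and Fzd8 to -0.011, and Fzd8 to -0.020 with DESeq2's Wald test. Leaving out 1 library gave values between -0.29 and 0.24 for Fzd5 and between -0.29 and 0.37 for Fzd8. The cause was not tested. Fzd5 is limited by depth.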
